A study of Mus musculus with 72 samples.

Results

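The 9 genes described here are members of the BPIF family that were measured in mouse olfactory epithelium: Bpifa1, Bpifb1, Bpifb2, Bpifb3, Bpifb4, Bpifb5, Bpifb6, Bpifb9a and Bpifb9b. They were taken by symbol from the deposited TPM table and matched by Ensembl ID to the count table, and all 9 were found among its 54532 gene IDs. Bpifb2 did not pass the filter on low counts, so 8 of the 9 were among the 22144 genes tested. The question was which of them rose and which fell after birth, in each genotype and with or without doxycycline (DOX).

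The family takes its name from the bactericidal/permeability-increasing protein BPI. Its members share a lipid-binding fold, and many of them are secreted proteins of the nose, mouth and airways. Bpifa1, also called PLUNC, is an abundant protein of airway surface liquid with roles in host defence, and the human protein is known to act on the epithelial sodium channel. Bpifb1 is the long PLUNC protein of airway glands and goblet cells. The rat counterparts of Bpifb3 and Bpifb4 were described in glands of the olfactory mucosa, and the rat counterpart of Bpifb9a and Bpifb9b is vomeromodulin, a product of nasal glands.

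The mice were of 3 genotypes. EctopicFzd1 mice carried Omp-IRES-tTA and tetO-Fzd1-IRES-tdTomato. The Omp gene, active in mature olfactory sensory neurons, supplies the tTA activator, which switches on Fzd1 (a receptor for Wnt proteins) in those neurons, and DOX blocks it. The titles give Fzd1lacZ mice as homozygous for a knockout allele of Fzd1. Control mice carried Omp-IRES-tTA alone, and no label names a wild-type group, so the knockout was set against mice that carry the tTA allele. Tissue of all 3 genotypes without DOX was taken at 5 ages, postnatal day 0 (P0), day 3, day 7, day 10 and day 14. For ectopicFzd1 and control mice on DOX since P0, the first age was P1 and the later ages were the same. Of the 25 groups, 22 held 3 libraries, and ectopicFzd1 at P14, control at P3 and control at P7, all without DOX, held 2.

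Gene counts per library were 1314528 to 8788000. A repeat-like family of 13 genes around Gm10800 took 0.0540% to 73.8% of them. Its share moved with age: in control it was 7.37% to 15.2% at P14 and 0.0540% to 0.678% at P0. Fzd1 was at 205 to 2122 CPM (counts scaled to library size by TMM) in 13 of 14 ectopicFzd1 libraries and at 3.48 to 20.3 CPM in the 15 Fzd1lacZ libraries. It was at 20.9 to 44.3 CPM in the 13 control libraries, at 22.0 to 64.0 CPM in the 15 ectopicFzd1 libraries with DOX and at 20.7 to 54.3 CPM in 14 of 15 control libraries with DOX. EctopicFzd1 P3 replicate 3 (Fzd1 at 43.0 CPM) and control with DOX P7 replicate 1 (3.45 CPM) went against their labels, and they are called the libraries labelled so. The sustentacular marker genes summed to 2583 to 13414 CPM in every library, so the labelled tissue was present throughout.

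All 9 genes lie on the plus strand of chromosome 2 within 445.6 kb (GRCm38/mm10, chr2:153875045-154320646). Along the chromosome they run Bpifb2, Bpifb6, Bpifb3, Bpifb4, Bpifa1, Bpifb1, Bpifb5, Bpifb9a and Bpifb9b. Bpifb9a (chr2:154257854-154271245) and Bpifb9b (chr2:154307227-154320646) are near-identical copies: their transcripts matched at 99.32% of 2065 aligned bases, and 71.4% of the 50-base windows of Bpifb9a also occur in Bpifb9b. No other pair of members shared a 50-base window. The gene counts set aside reads that map to more than 1 place, 8.97% to 41.9% of reads per library. Reads that fit both copies may therefore be missing from the counts of the pair. The Bpifb9b to Bpifb9a ratio was 3.40 to 7.30 in the counts and 1.15 to 2.52 in the TPM values. Single values of the copies are uncertain for that reason, and their sum is given beside them. In CPM the sum does not restore reads set aside, so it may be too low against other genes.

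The promoter windows of the members that changed most are printed here, from RefSeq on GRCm38.p6, plus strand, 5′ to 3′, from 250 bases before to 50 bases after the annotated start. The first 3 belong to the neighbouring genes that fell and the last to the gene that rose most, through the downstream of its 2 annotated starts. Capitals mark TATAAA (the TATA box) and AACAAAG (a string bound by SOX factors), searched on both strands.
Bpifb9a (chr2:154257629-154257928): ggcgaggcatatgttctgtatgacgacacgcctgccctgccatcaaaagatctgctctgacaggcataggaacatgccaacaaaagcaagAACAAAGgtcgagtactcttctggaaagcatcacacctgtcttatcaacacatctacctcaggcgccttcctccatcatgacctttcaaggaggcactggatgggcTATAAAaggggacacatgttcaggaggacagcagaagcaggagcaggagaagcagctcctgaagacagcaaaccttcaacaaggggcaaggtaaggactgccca
Bpifb9b (chr2:154306994-154307293): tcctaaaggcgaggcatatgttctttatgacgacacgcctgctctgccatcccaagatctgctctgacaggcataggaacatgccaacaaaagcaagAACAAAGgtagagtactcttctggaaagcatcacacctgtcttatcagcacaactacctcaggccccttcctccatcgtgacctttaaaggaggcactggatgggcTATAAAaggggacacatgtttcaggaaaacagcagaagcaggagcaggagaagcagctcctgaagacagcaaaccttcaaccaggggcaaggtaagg
Bpifb5 (chr2:154223492-154223791): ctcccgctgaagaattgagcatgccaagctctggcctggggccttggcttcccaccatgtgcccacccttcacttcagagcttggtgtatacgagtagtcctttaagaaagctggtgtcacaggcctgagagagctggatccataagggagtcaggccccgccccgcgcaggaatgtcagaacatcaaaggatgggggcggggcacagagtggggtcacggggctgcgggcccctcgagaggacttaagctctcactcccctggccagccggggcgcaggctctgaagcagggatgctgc
Bpifb3 (chr2:153918144-153918443): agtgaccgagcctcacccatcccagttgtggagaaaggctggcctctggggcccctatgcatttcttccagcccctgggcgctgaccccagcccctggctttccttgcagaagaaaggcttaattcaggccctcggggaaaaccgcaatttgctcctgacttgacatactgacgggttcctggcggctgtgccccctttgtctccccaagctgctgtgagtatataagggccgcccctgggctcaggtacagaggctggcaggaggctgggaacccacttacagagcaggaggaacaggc

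The windows of Bpifb9a and Bpifb9b matched at 95.55% of 292 aligned bases and held both strings. TATAAA occurred in 3 of the 9 members (Bpifb9a, Bpifb9b and Bpifa1) and in 13.6% of 32851 promoter windows of all genes. AACAAAG occurred in 2 members and in 5.85% of those windows. Neither exact string was in the windows of Bpifb5 and Bpifb3 printed here. Other forms of the TATA box were not searched, and the Bpifb3 window holds the similar string tatataag, so no lack of a TATA box follows.

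By TPM, which is scaled for gene length, the members spanned a wide range of levels. In control at P14 the order was Bpifa1 (2656 ± 168 TPM, SD, n = 3), Bpifb9b (638 ± 448), Bpifb9a (441 ± 325), Bpifb3 (173 ± 37.0), Bpifb6 (167 ± 43.2), Bpifb4 (106 ± 24.1), Bpifb5 (16.0 ± 11.6) and Bpifb1 (15.3 ± 1.90). In control at P0 it was Bpifb9b (17473 ± 4364 TPM, SD, n = 3), Bpifb9a (9950.2 ± 2661), Bpifa1 (2386 ± 1103), Bpifb5 (1395 ± 335), Bpifb6 (61.1 ± 15.1), Bpifb4 (56.4 ± 12.4), Bpifb3 (11.2 ± 1.09) and Bpifb1 (10.1 ± 4.54). Intervals of 1 SD overlapped between Bpifa1 and Bpifb5, Bpifb6 and Bpifb4, and Bpifb3 and Bpifb1 at P0. At P14 they overlapped along the run from Bpifb9b to Bpifb4, neighbour by neighbour, and between Bpifb5 and Bpifb1. Together the 9 genes held 0.375% to 0.484% of all TPM in control at P14 and 2.54% to 3.83% at P0. Across all 72 libraries their share was 0.0525% to 4.10%, the lowest at P10 in Fzd1lacZ and the highest at P0 in ectopicFzd1. Fzd1lacZ P10 replicates 1 and 3 had 68.3% and 73.8% of their gene counts in the Gm10800-type family, which can lower the TPM share of all other genes.

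Between birth and P14 the family split. Bpifb5 fell and Bpifb3 rose in all 5 combinations of genotype and DOX. Bpifb9a and Bpifb9b had negative changes in all 5, and Bpifb4, Bpifb6, Bpifb1 and Bpifa1 positive ones. A gene was called where edgeR's quasi-likelihood test gave a Benjamini-Hochberg adjusted p below 0.05 over all genes tested. In ectopicFzd1, P14 against P0, 3 of the 8 tested members were higher and 3 lower, against a background of 32% of all genes called (17% higher and 15% lower). In Fzd1lacZ 5 were higher and 1 lower (22.5% of all genes called, 11.5% higher and 11% lower), and in control 5 were higher and 3 lower (45.7%, 23.5% higher and 22.2% lower). With DOX, P14 against P1, 5 were higher and 1 lower in ectopicFzd1 (34.4%, 14.6% higher and 19.7% lower), and 2 were higher and 2 lower in control (37.8%, 17.1% higher and 20.7% lower). In whole tissue, fewer cells of a type and less RNA per cell cannot be told apart.

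**Figure D1:**
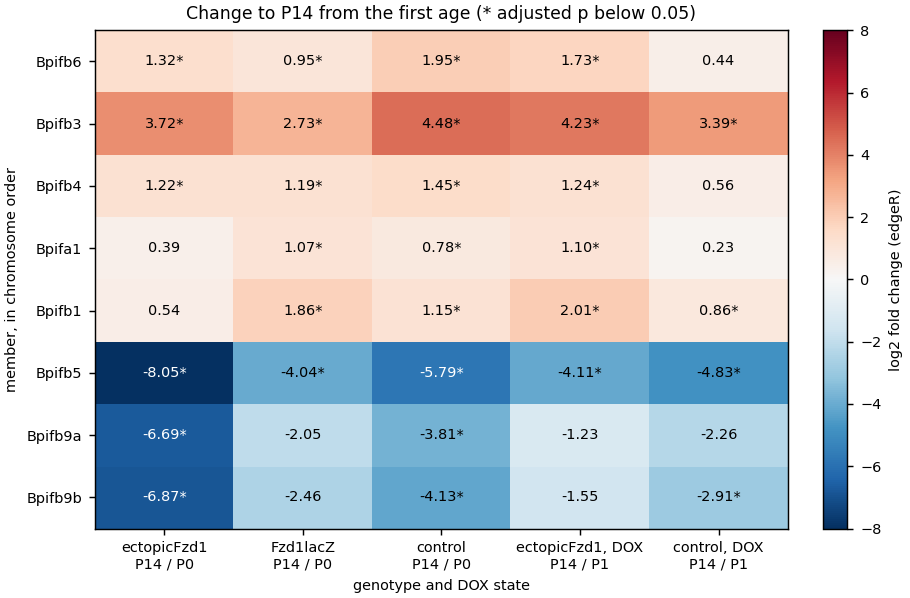
Fitted log2 fold change of the 8 tested members (rows, in chromosome order) to P14 from the first age sampled, in 5 combinations of genotype and DOX (columns). Red is higher at P14 and blue lower, and asterisks mark adjusted p below 0.05. The 3 members at the lower end, Bpifb5, Bpifb9a and Bpifb9b, are blue in every column, and the deepest red row is Bpifb3.

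The median change of all genes tested lay between -0.04 and 0.07 on the log2 scale with TMM. On log2(TPM + 1) it lay between -0.71 (ectopicFzd1 with DOX) and -0.32 (control), so a change there is read against that shift. Bpifb3 and Bpifb5 were called by limma in all 5 combinations on the TPM scale too, with the same signs. The rises of Bpifa1, Bpifb1 and Bpifb4 were not called there, nor was that of Bpifb6 outside control, where its adjusted p was 0.00471. On the TPM scale 6 changes turned from positive to negative before the shift is taken off. They were those of Bpifa1 and Bpifb1 in ectopicFzd1 (-0.41 and -0.21), of Bpifa1 in ectopicFzd1 with DOX (-0.06), and of Bpifa1, Bpifb4 and Bpifb6 in control with DOX (-0.61, -0.31 and -0.38). Relative to the median gene, 5 of these were positive again, and Bpifa1 in control with DOX was at -0.16.

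Bpifb5 gave the clearest fall. In control it was at 130, 55.4 and 21.9 CPM at P14 against 4645, 3892 and 2923 CPM at P0. In ectopicFzd1 it was at 11.3 and 21.6 CPM at P14 against 5278, 2946 and 4959 CPM at P0. In Fzd1lacZ it was at 77.9, 73.5 and 154 CPM at P14 against 2086, 1654 and 1301 CPM at P0. Every P14 library thus lay below every P0 library of its genotype, by more than the spread within either age. The log2 fold changes were -8.05 (SE 1.61, adjusted p = 0.000112) in ectopicFzd1, -4.04 (SE 1.09, 0.00469) in Fzd1lacZ and -5.79 (SE 1.18, 6.62e-05) in control.

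With DOX the fall was seen from P1. Bpifb5 was at 70.9, 98.4 and 101 CPM at P14 in ectopicFzd1 with DOX, against 989, 1313 and 2347 CPM at P1 (log2 fold change -4.11, SE 1.09, adjusted p = 0.00216). It was at 34.0, 24.1 and 129 CPM at P14 in control with DOX, against 1610, 2098 and 1567 CPM at P1 (-4.83, SE 1.13, 0.000442). Already at P3 its log2 change was -3.86 (adjusted p = 0.00763) in ectopicFzd1 with DOX, where the P3 libraries may come from 1 animal. In control with DOX it was -3.91 (0.0052). In Fzd1lacZ at P3 it was at 1769, 1741 and 1875 CPM, and the fitted change from P0 was 0.09 (SE 0.95). Over the 20 comparisons of a later age with the first, Bpifb5 was called lower in 15 and higher in 0.

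**Figure D2:**
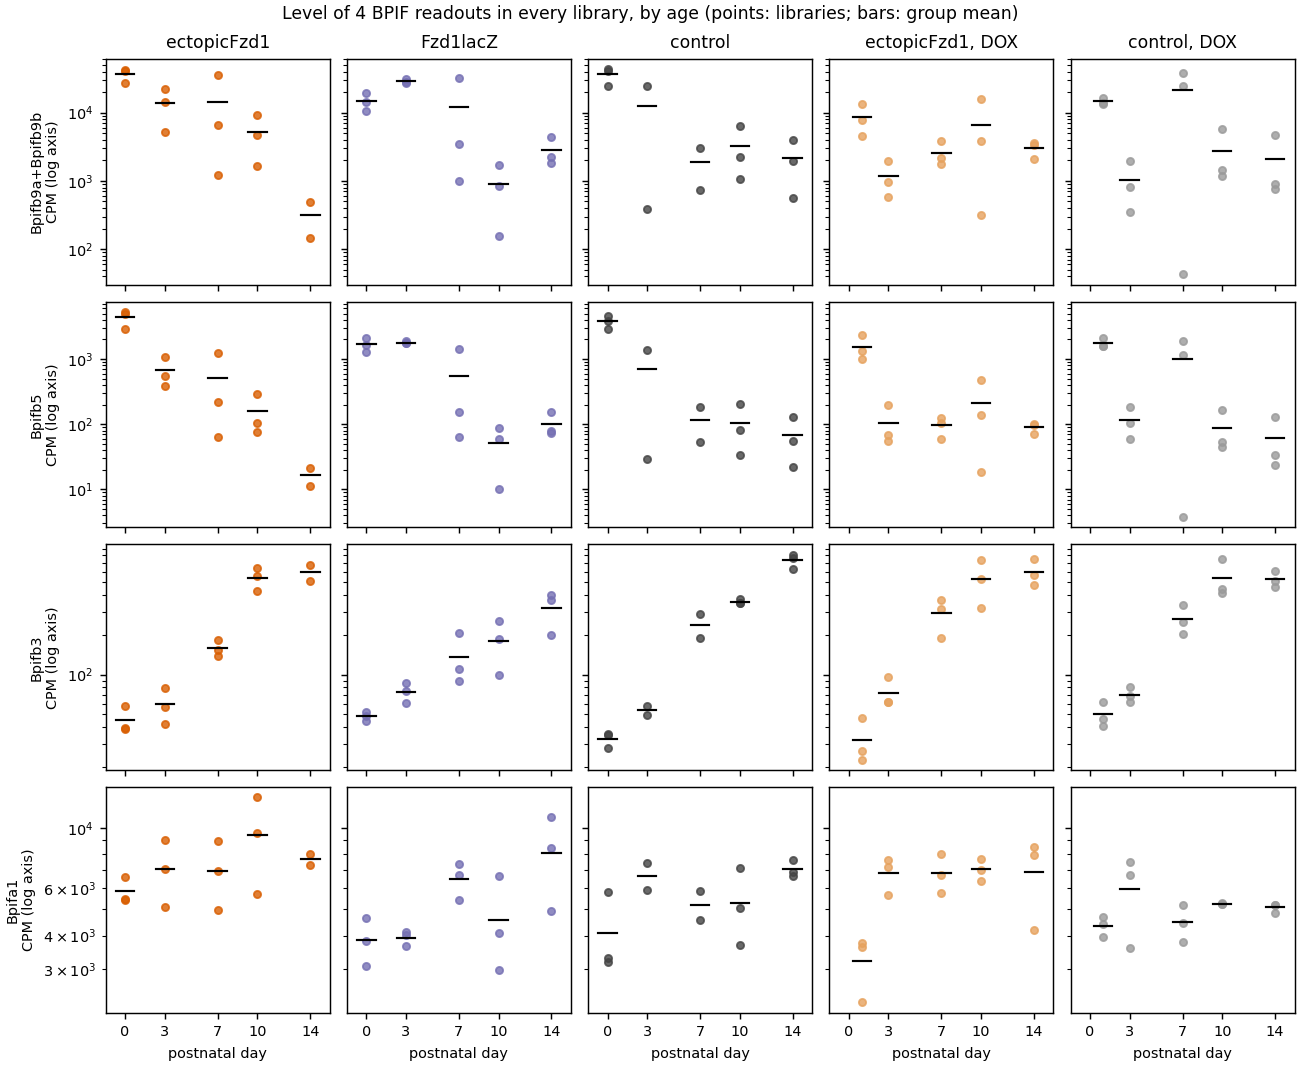
Level of the summed pair Bpifb9a and Bpifb9b, of Bpifb5, Bpifb3 and Bpifa1 (rows, CPM on log axes) against postnatal day, for each genotype and DOX state (columns). Points are libraries and bars are group means. The upper 2 rows fall and scatter over orders of magnitude within some groups, Bpifb3 climbs in every column, and Bpifa1 stays between 2262 and 12990 CPM.

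The vomeromodulin-type pair Bpifb9a and Bpifb9b started as the most abundant transcripts of the family and scattered widely later. Their sum in ectopicFzd1 was 145 and 494 CPM at P14 against 42255, 27130.4 and 40457 CPM at P0. In Fzd1lacZ it was 1834, 2240.2 and 4380.2 CPM at P14 against 19176, 14429 and 10608 CPM at P0. In control it was 3951, 1964 and 569 CPM at P14 against 43037, 40609 and 24860 CPM at P0. In these genotypes no P14 library reached the P0 range. With DOX the sum was 2099, 3619 and 3366 CPM at P14 in ectopicFzd1 against 4582, 7735 and 13287 CPM at P1. In control with DOX it was 902, 759 and 4649 CPM at P14 against 13546, 16499 and 13945 CPM at P1.

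Not all of these falls passed the test. Bpifb9b was lower by -6.87 (SE 1.70, adjusted p = 0.00154) in ectopicFzd1, -4.13 (SE 1.24, 0.00544) in control and -2.91 (SE 1.17, 0.0424) in control with DOX. Its change was -2.46 (SE 1.15, 0.116) in Fzd1lacZ and -1.55 (SE 1.11, 0.300) in ectopicFzd1 with DOX. Bpifb9a was lower by -6.69 (SE 1.68, adjusted p = 0.00187) in ectopicFzd1 and -3.81 (SE 1.21, 0.0088) in control, and was not called in the other 3 combinations. The Bpifb9a calls were lost without ectopicFzd1 P14 replicate 1 (-6.08, 0.0546) and without control P14 replicate 3 (-3.34, 0.0511). The Bpifb9b call in control with DOX was lost without any one of 5 of its 6 libraries, all but P14 replicate 3, with values of -2.97 to -2.51 and adjusted p of 0.0589 to 0.156.

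In Fzd1lacZ at P3 the pair was at 31525, 27305 and 28397 CPM, above all 3 P0 libraries and with the narrowest spread of any group. In ectopicFzd1 with DOX it was low throughout at P3 (574 to 1948 CPM) and P7 (1786 to 3826 CPM). It was also low throughout in control with DOX at P3 (346 to 1974 CPM), in Fzd1lacZ at P10 (155 to 1737 CPM) and in control at P7 (734.5 and 2991 CPM). In several other groups between P3 and P10 it was high in some libraries and low in others. The median over groups of the highest library divided by the lowest was 4.19 for the sum, against 1.38 for Bpifa1. In ectopicFzd1 at P7 the sum was 1222, 35413 and 6648 CPM, and in Fzd1lacZ at P7 it was 32295, 3492 and 998 CPM. Both of these groups hold libraries that differ in the leading digits of the animal ID in their titles. In ectopicFzd1 the library at 1222 CPM differs in them from those at 35413 and 6648 CPM, which share them but also lie far apart. In Fzd1lacZ the library at 32295 CPM shares them with the P0 and P3 libraries and the low ones with P10 and P14. In control at P3 the libraries, which share these digits, were at 391 and 24532 CPM. The widest gap, also among libraries that share these digits, was in control with DOX at P7, at 42.8, 38350.0 and 24864 CPM. The lowest of these, replicate 1, is the library whose Fzd1 goes against its label, and without it the values are 24864 and 38350.0 CPM. Bpifb5 was low and high in the same libraries, at 3.76, 1889 and 1172 CPM in that group. The percentage of counts in the Gm10800-type family, at 0.132%, 3.38% and 0.702% there, was low throughout.

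Bpifb3, whose rat counterpart was found in olfactory mucosa, rose most. In ectopicFzd1 it was at 509 and 681 CPM at P14 against 39.3, 38.7 and 57.9 CPM at P0. In Fzd1lacZ it was at 199.8, 399 and 366 CPM at P14 against 44.7, 49.0 and 52.6 CPM at P0. In control it was at 767, 630.1 and 808 CPM at P14 against 35.0, 35.4 and 28.0 CPM at P0. All P14 libraries lay above all P0 libraries in each genotype. The log2 fold changes were 3.72 (SE 0.34, adjusted p = 1.22e-12) in ectopicFzd1, 2.73 (SE 0.31, 3.35e-09) in Fzd1lacZ and 4.48 (SE 0.33, 6.68e-16) in control.

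With DOX, P14 against P1, Bpifb3 rose by 4.23 (SE 0.33, adjusted p = 1.74e-15) in ectopicFzd1 and 3.39 (SE 0.32, 6.00e-13) in control. The climb went through the intermediate ages: in control without DOX the group means were 32.8, 53.9, 239, 356 and 735 CPM at P0, P3, P7, P10 and P14. Bpifb3 was called higher in 16 of the 20 comparisons of a later age with the first. The other 4 were the P3 comparisons of all combinations but ectopicFzd1 with DOX, with changes of 0.41 to 0.71.

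Bpifb6 and Bpifb4, the chromosomal neighbours of Bpifb3 on either side, rose less. Bpifb6 was at 526, 645 and 697 CPM at P14 in control against 179.7, 203 and 98.8 CPM at P0 (log2 fold change 1.95, SE 0.32, adjusted p = 1.57e-06). Its change was 1.32 (0.00244) in ectopicFzd1, 0.95 (0.0225) in Fzd1lacZ and 1.73 (1.58e-05) in ectopicFzd1 with DOX. Bpifb4 was at 403, 499.8 and 482 CPM at P14 in control against 188, 213 and 107 CPM at P0 (1.45, SE 0.27, 1.62e-05). Its change was 1.22 (0.00109) in ectopicFzd1, 1.19 (0.000905) in Fzd1lacZ and 1.24 (0.000189) in ectopicFzd1 with DOX. Neither was called in control with DOX, where Bpifb6 changed by 0.44 (SE 0.31, 0.277) and Bpifb4 by 0.56 (SE 0.27, 0.0923). There the levels at P10 were above those at P14: Bpifb6 was at 729.5, 686 and 1199 CPM at P10 and 486, 445 and 498 CPM at P14. In Fzd1lacZ the Bpifb6 call was lost without P0 replicate 1, P0 replicate 3 or P14 replicate 3 (adjusted p 0.0551 to 0.140, change 0.74 to 0.97).

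Bpifa1 and Bpifb1, the airway-type members in the middle of the cluster, had positive changes in all 5 combinations, called in 3 for Bpifa1 and in 4 for Bpifb1. Bpifa1 was at 8010 and 7315 CPM at P14 in ectopicFzd1 against 5484, 6609 and 5438 CPM at P0 (log2 fold change 0.39, SE 0.33, adjusted p = 0.372). It was at 4926, 10995 and 8417 CPM at P14 in Fzd1lacZ against 4652, 3089 and 3828 CPM at P0 (1.07, SE 0.30, 0.0063). In control it was at 7649, 6873 and 6648 CPM at P14 against 3300.1, 3199.6 and 5816 CPM at P0 (0.78, SE 0.30, 0.0273). With DOX it rose by 1.10 (SE 0.30, 0.00262) in ectopicFzd1 and was not called in control (0.23, SE 0.29, 0.588). By TPM Bpifa1 was at 2656 ± 168 at P14 against 2386 ± 1103 at P0 in control (SD, n = 3), a difference within the spread. The call in control was lost without P0 replicate 1, P0 replicate 2 or P14 replicate 1 (adjusted p 0.0746 to 0.126). It was also lost without the Gm10800-type genes (0.0604) and without the filter on low counts (0.141). The call in Fzd1lacZ was lost without P0 replicate 2 or P14 replicate 2 (0.0516 and 0.0948).

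Bpifb1 was at 14.97 to 187 CPM over all libraries. It was at 67.9, 187 and 103 CPM at P14 in Fzd1lacZ against 46.7, 26.4 and 26.2 CPM at P0 (log2 fold change 1.86, SE 0.31, adjusted p = 1.08e-05). In control it was at 64.2, 61.8 and 64.9 CPM at P14 against 14.97, 34.0 and 37.7 CPM at P0 (1.15, SE 0.31, 0.00205). With DOX it rose by 2.01 (SE 0.31, 5.81e-07) in ectopicFzd1 and by 0.86 (SE 0.31, 0.0228) in control. In ectopicFzd1 without DOX it was not called (0.54, SE 0.34, 0.222). The call in control with DOX was lost without P1 replicate 3 or P14 replicate 1 (adjusted p 0.0917 and 0.0593).

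Bpifb2, which stands at the far end of the cluster, was close to silent. It had 0 to 6 counts per library (median 2), was at 0 in 14 of 72 libraries, and reached at most 0.51 TPM. No test or fold change is given for it.

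The ages between are given next, with the members' counts set beside the share of all genes called in the same direction. In ectopicFzd1 at P3 0 members were higher (5.39% of all genes) and 0 lower (6.45%), and 2 had an unadjusted p below 0.05. At P7 3 were higher (15.8%) and 1 lower (13.7%), and at P10 3 were higher (16.4%) and 1 lower (16.9%). In Fzd1lacZ 2 were higher (0.596%) and 0 lower (0.515%) at P3, 2 higher (2.05%) and 0 lower (1.91%) at P7, and 1 higher (8.51%) and 3 lower (10.7%) at P10. In control 0 were higher (5.77%) and 0 lower (6.87%) at P3, where 3 had an unadjusted p below 0.05. In control 4 were higher (17%) and 3 lower (15.4%) at P7, and 4 higher (23.4%) and 3 lower (20.4%) at P10.

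With DOX, members were called in both directions at P3. In ectopicFzd1 with DOX 3 were higher (6.22%) and 1 lower (11.3%) at P3, where the libraries may come from 1 animal. There 5 were higher (12.2%) and 1 lower (16.2%) at P7, and 5 higher (14.6%) and 1 lower (17.6%) at P10. In control with DOX 1 was higher (8.93%) and 3 lower (13%) at P3, 4 higher (11.1%) and 0 lower (10.1%) at P7, and 4 higher (14%) and 1 lower (16.9%) at P10. At P3 the 3 lower members were Bpifb5, Bpifb9a and Bpifb9b. At P7 in control with DOX they were not called. The library of that group whose Fzd1 goes against its label was its lowest for these members, with the summed pair at 42.8 CPM. The other libraries of the group were at 38350.0 and 24864 CPM, above the P1 libraries at 13546 to 16499 CPM.

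An F test over all 5 ages called 6 of the 8 members in ectopicFzd1 (37.4% of all genes), 8 in Fzd1lacZ (39%) and 7 in control (46.6%). With DOX it called 6 in ectopicFzd1 (38.1%) and 7 in control (48.2%). The leading digits of the animal ID in the titles changed along the ages in all 5 combinations. The first age and P14 share them in control with DOX, and in the other 4 combinations they differ, so that age and ID series cannot be told apart in the comparison of P14 with the first age there. In control with DOX, Bpifb5 and Bpifb9b were called lower and Bpifb3 and Bpifb1 higher between P14 and P1. P10 shares the digits with P1 there too, and Bpifb5 was called lower and Bpifb1, Bpifb3, Bpifb4 and Bpifb6 higher. EctopicFzd1 with DOX shares them between P3 and P1, where Bpifb5 was called lower (-3.86, adjusted p = 0.00763). Bpifa1, Bpifb3 and Bpifb6 were called higher in that comparison (1.08, 1.19 and 1.22), and its P3 libraries may come from 1 animal. Fzd1lacZ shares them between P3 and P0, where Bpifb4 and Bpifb6 were called higher.

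When ages were averaged, edgeR called 0 of the 8 tested members between Fzd1 genotypes. With 8 members, a count of 0 lies near the shares of all genes called, so nothing about the family follows from it. In ectopicFzd1 against control without DOX, 0 of 8 members were called by edgeR (9.19% of all genes called), 1 by DESeq2, and 1 had an unadjusted p below 0.05. That member was Bpifa1, with a change of 0.39 (SE 0.14, adjusted p = 0.0704). In Fzd1lacZ against control, 0 were called by edgeR (2.85%) and 0 by DESeq2, and 2 had an unadjusted p below 0.05: Bpifb3 (-0.38, SE 0.14, adjusted p = 0.137) and Bpifb4 (-0.30, SE 0.12, 0.222). Fzd1lacZ and control share an ID series only at P14, so genotype and ID series cannot be told apart in that average. With DOX, ectopicFzd1 against control called 0 by either tool (0.826%), and 0 had an unadjusted p below 0.05. These groups with DOX share an ID series only at P1. The ectopic effect without DOX minus that with DOX also called 0 by either tool (2.39%), with 0 unadjusted. The standard errors of Bpifb5, Bpifb9a and Bpifb9b in these averages were 0.44 to 0.81. Log2 changes well above their standard error could be missed, as Bpifa1 at 0.39 with an SE of 0.14 was not called. Without ectopicFzd1 P3 replicate 3 and the other library whose Fzd1 goes against its label, 1 member was called in ectopicFzd1 against control without DOX.

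The slope with age of Bpifb3 differed between the Fzd1lacZ and control libraries. Its rise from P0 to P14 was smaller in Fzd1lacZ than in control by 1.76 on the log2 scale (difference -1.76, SE 0.42, adjusted p = 0.0173, edgeR). At P14 it was at 199.8, 399 and 366 CPM in Fzd1lacZ against 767, 630.1 and 808 CPM in control, with no overlap. At P0 it was at 44.7, 49.0 and 52.6 CPM in Fzd1lacZ against 35.0, 35.4 and 28.0 CPM in control. This was 1 of 8 members called, against 3.55% of all genes, and the call held without any one of the 12 libraries (-1.94 to -1.51). It was not called on the TPM scale (-1.98, 0.235, limma on log2(TPM + 1)). The ID series of Fzd1lacZ and control differ at P0 and are shared at P14, so genotype and ID series cannot be told apart in this difference. Of Bpifb6 the same difference was -1.01 (SE 0.44, adjusted p = 0.151). For ectopicFzd1 against control without DOX, 0 members differed in slope by either tool (0.0858% of all genes), and 0 had an unadjusted p below 0.05. With DOX the count was 0 by edgeR (3.5%) and 1 by DESeq2, with 3 members at an unadjusted p below 0.05.

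Libraries with DOX had higher Bpifb4 in both genotypes. Averaged over P3, P7, P10 and P14, Bpifb4 was higher with DOX by 0.64 (SE 0.14, adjusted p = 0.00102) in ectopicFzd1 and by 0.62 (SE 0.14, 0.0206) in control. Bpifb1 was higher by 0.70 (SE 0.16, adjusted p = 0.00168) in ectopicFzd1, and in control the change was 0.52 (SE 0.16, 0.106). At P10 Bpifb4 was at 833, 525 and 735 CPM with DOX against 368, 661 and 539 CPM without in ectopicFzd1. In control at P10 it was at 617, 588 and 943 CPM with DOX against 386, 391 and 368 CPM without, a gap that no library crossed. At P14 in control the ranges overlapped, at 412, 405 and 459 CPM with DOX against 403, 499.8 and 482 CPM without. The ID series of the titles differ between control libraries with and without DOX at P3, P7 and P10 and are shared only at P14, so DOX and ID series cannot be told apart in control at the ages where Bpifb4 did not overlap. In ectopicFzd1 at P14, where the series is shared, Bpifb4 was at 742, 518 and 522 CPM with DOX against 416 and 447 CPM without, with no overlap. The calls were 2 of 8 members in ectopicFzd1 (7.5% of all genes) and 1 of 8 in control (0.867%). The Bpifb4 call in control was lost on the TPM scale, and without control P3 replicate 1, control P7 replicate 1 or 2, or control with DOX P7 replicate 1 or P10 replicate 3 (adjusted p 0.0506 to 0.0627).

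**Figure D3:**
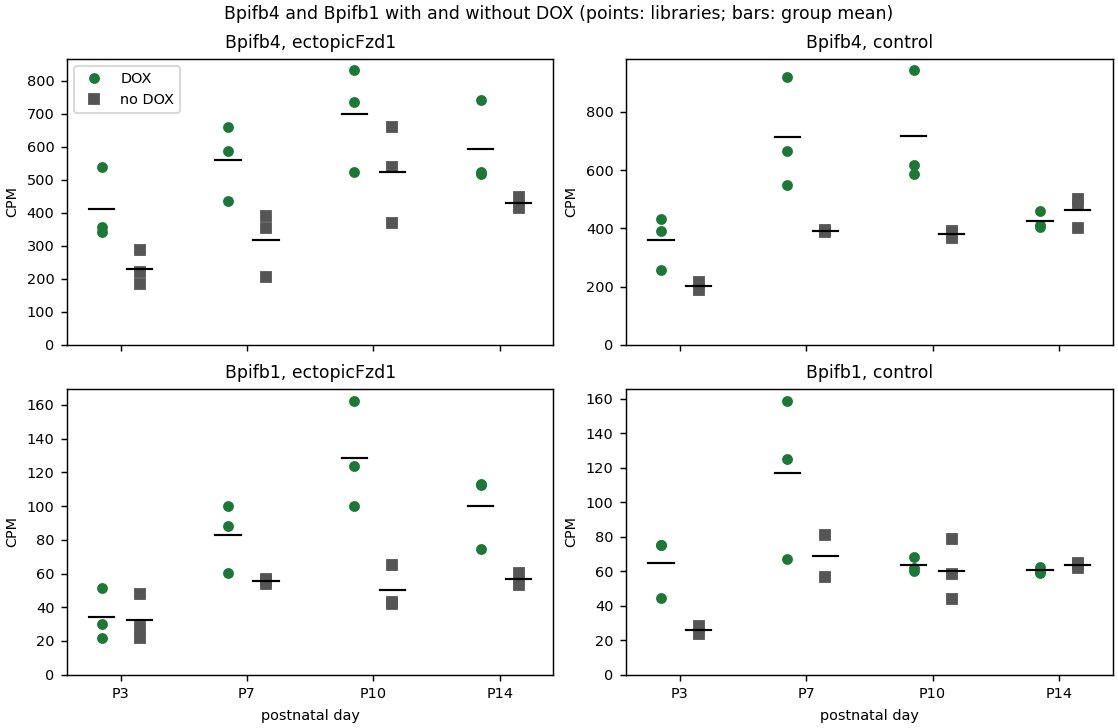
CPM of Bpifb4 (upper row) and Bpifb1 (lower row) in ectopicFzd1 (left) and control (right) libraries at P3 to P14, with DOX (circles) and without (squares). Points are libraries and bars group means. In control, Bpifb4 with DOX lies above the libraries without DOX at P3, P7 and P10 but not at P14.

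The change from P3 to P14 was also compared between DOX states. For ectopicFzd1 it was larger with DOX by 7.003 (SE 1.91, adjusted p = 0.0237) for Bpifb9a and by 6.77 (SE 1.88, 0.0273) for Bpifb9b, 2 of 8 members against 3.82% of all genes. The summed pair was at 2099, 3619 and 3366 CPM at P14 and 1948, 574 and 976 CPM at P3 with DOX. Without DOX it was at 145 and 494 CPM at P14 and 5211, 21820 and 14141 CPM at P3. With DOX all 3 P14 libraries lay above all P3 libraries, and without DOX both P14 libraries lay below all P3 libraries. The calls were lost on the TPM scale and without ectopicFzd1 P14 replicate 1 or 2, ectopicFzd1 P3 replicate 2 or ectopicFzd1 with DOX P3 replicate 2 (adjusted p 0.0516 to 0.184). The Bpifb9b call was also lost without ectopicFzd1 with DOX P3 replicate 3 (6.65, 0.0525). The ID series of ectopicFzd1 differ between DOX states at P3 and are shared at P14, so DOX and ID series cannot be told apart in these terms. All 3 titles of ectopicFzd1 with DOX at P3 carry 1 animal ID, so these libraries may come from 1 animal. Another ID stands on 1 library of ectopicFzd1 with DOX at P10 (replicate 3) and on 1 at P14 (replicate 1), which cannot be 1 animal of both ages, so 1 of these titles may be wrong. For control, 0 members were called by edgeR (2.31%) and 1 by DESeq2, with 4 at an unadjusted p below 0.05.

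Libraries of 1 group departed from their group mean together within 3 blocks of neighbouring genes. Over 72 libraries, Pearson's r of these departures in log2(CPM + 1) was 0.988 to 0.998 within Bpifb5, Bpifb9a and Bpifb9b. It was 0.72 to 0.81 within Bpifb6, Bpifb3 and Bpifb4, and 0.64 between Bpifa1 and Bpifb1. The 21 pairs across blocks had r between -0.20 and 0.36. These values are descriptions: the points share libraries and depth, and the blocks were seen in the data. The copies Bpifb9a and Bpifb9b are also near-identical in sequence, while Bpifb5 shares no 50-base window with them. The departures of Bpifb5, Bpifb9a and Bpifb9b had r of 0.10 to 0.12 with those of the gene counts per library. Those of Bpifb6, Bpifb4, Bpifb1, Bpifb3 and Bpifa1 had 0.29 to 0.55. With the percentage of counts in the Gm10800-type family, the first 3 genes had r of -0.02 to 0.002 and the others -0.41 to -0.31.

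**Figure D4:**
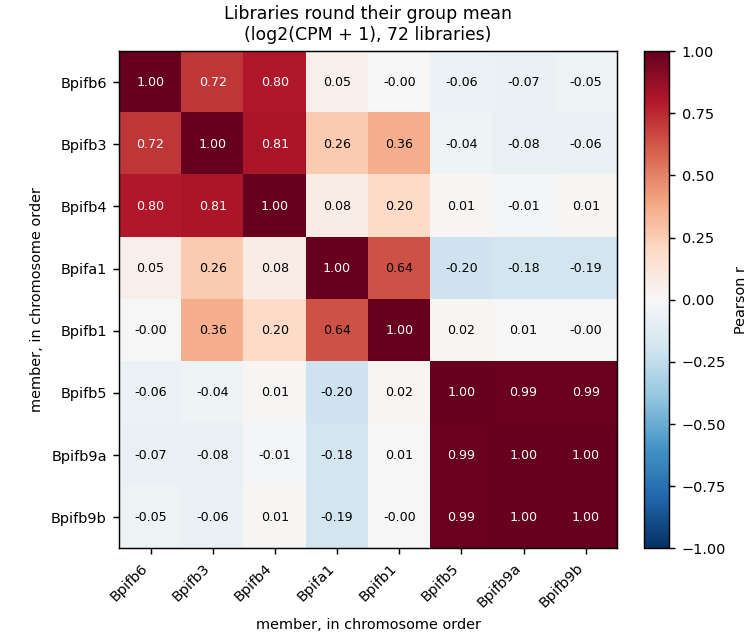
Pearson's r between members (rows and columns, in chromosome order) of the departure of each of 72 libraries from its group mean, in log2(CPM + 1). Red is positive and blue negative. The blocks Bpifb6 to Bpifb4, Bpifa1 to Bpifb1 and Bpifb5 to Bpifb9b stand out along the diagonal.

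For each tested member the 3 genes most like it were taken by r over the 25 group means of log2(CPM + 1). Bpifb9a and Bpifb9b were both closest to Odam (r 0.97 and 0.96), the gene of odontogenic ameloblast-associated protein, and then to Cabs1 (0.93 and 0.93). Bpifb9a was next closest to the WAP-domain gene Wfdc18 (0.92) and Bpifb9b to Gprin3 (0.93). Odam also followed the pair library by library, with r of 0.97 and 0.96 for departures from the group mean. Odam was at 0.662 to 2.04 CPM at P14 in ectopicFzd1 against 61.1 to 103 CPM at P0, and at 2.59 to 16.4 CPM at P14 in control against 87.4 to 98.5 CPM at P0. Bpifb5 was closest to Gprin3 (0.97), Ghr, the growth hormone receptor gene (0.96), and Rassf10 (0.96).

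**Figure D5:**
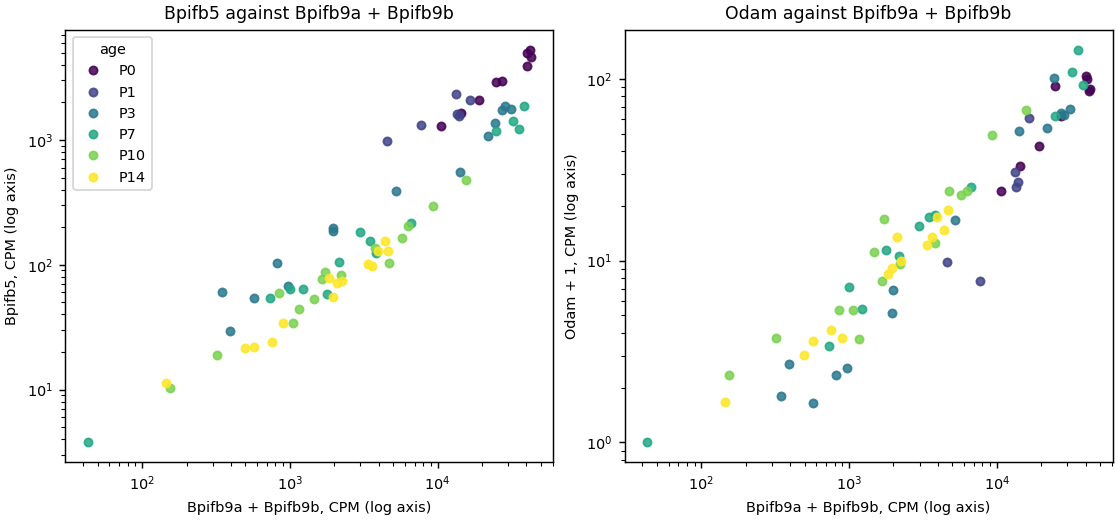
Bpifb5 (left) and Odam plus 1 (right), in CPM on log axes, against the sum of Bpifb9a and Bpifb9b in each of the 72 libraries, coloured by age from P0 to P14. Both genes climb with the pair over its range of 42.8 to 43037 CPM, and the P14 libraries lie at no more than 154 CPM of Bpifb5.

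The rising members had other partners. Bpifb3 was closest to Scgb1c1, a secretoglobin (r 0.98), Cox8b (0.98) and Cyp3a13 (0.97). Bpifb6 was closest to Ces1a (0.96), Gpx6, a glutathione peroxidase of the olfactory mucosa (0.93), and Vmo1 (0.90), and Bpifb4 to Slc22a2 (0.90), Apod (0.90) and Slc22a20 (0.89). Bpifa1 was closest to Emb (0.85), Cbr2 (0.85) and Ociad2 (0.84), and Bpifb1 to Fetub (0.89), the chitinase-like gene Chil4 (0.88) and Lpar3 (0.85). Scgb1c1 was at 2204 to 2646 CPM at P14 in control against 93.9 to 175 CPM at P0.

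The other genes of the BPI fold were mostly low. Of the 8 listed, Bpi, Lbp, Pltp, Bpifa2 and Bpifc were tested. Pltp, the phospholipid transfer protein gene, fell in all 5 combinations (by 1.49 in ectopicFzd1, 0.64 in Fzd1lacZ and 1.48 in control). Lbp, the lipopolysaccharide-binding protein gene, fell in ectopicFzd1 (-0.94, adjusted p = 0.0155), control (-1.10, 0.000477) and control with DOX (-0.75, 0.0219). Bpifa2, a salivary relative, was called higher in control (2.59, SE 0.94, 0.0209) but was at no more than 4.35 CPM in any library. Bpifa3, Bpifa5 and Bpifa6, which lie between the members, did not pass the filter. Of the 3 sodium channel genes, Scnn1b and Scnn1g rose in ectopicFzd1 with DOX (0.82 and 0.88), Scnn1b rose in control (0.57), and Scnn1a fell in control (-0.50) and in control with DOX (-0.56). None was called in ectopicFzd1 or Fzd1lacZ without DOX.

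Marker lists of the cells that could carry the family moved with age as well. Of 7 Bowman gland genes in control, 3 rose, among them Gpx6 (2.81), Sec14l3 (1.65) and Dmbt1 (2.82), and 3 fell, among them Sox9 (-1.49), with a list median of 0.23 against 0.06 for all genes. All 6 sustentacular genes rose in all 5 combinations, with medians of 1.37 to 1.77. Their sum was 10796 to 11507 CPM at P14 against 3073 to 3874 CPM at P0 in control. Of 9 tested airway secretory genes, 1 rose (Agr2, by 1.01) and 4 fell in control, 1 rose and 3 fell in ectopicFzd1, and 2 rose and 1 fell in Fzd1lacZ. With DOX, 4 of them rose and 1 fell in ectopicFzd1, and 1 rose and 2 fell in control. Scgb1a1, the club cell secretoglobin gene, had no counts in 50 of 72 libraries. Of 5 horizontal basal cell genes, 5 fell in control and 2 to 4 in the other combinations.

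Of 10 ciliated cell genes, 8 fell in ectopicFzd1, 2 fell in Fzd1lacZ and 7 fell in control, with 0 higher in each. With DOX, 4 of the ciliated genes rose and 1 fell in ectopicFzd1, and 2 rose and 2 fell in control. All 10 mature neuron genes rose in 4 combinations (list median 2.09 in control), and in ectopicFzd1 9 rose and 1 fell. Of 4 immature neuron genes, 3 rose in ectopicFzd1, 0 in Fzd1lacZ and 2 in each of the other 3 combinations. Over the 5 combinations, 2 to 3 of 5 tested salivary-type gland genes rose and 1 to 2 fell, and 0 to 1 of 2 tested vomeronasal genes fell. Of 4 tested neutrophil genes, 2 rose in Fzd1lacZ and 1 fell in control with DOX. Of 3 erythroid genes, 1 fell in ectopicFzd1 with DOX and 3 in control with DOX.

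Of 8 tested nasal lipocalin genes, which encode odorant-binding and related secreted proteins, 7 rose in control (Lcn4 by 10.5 and Obp1b by 9.96), with a list median of 6.11. In the other combinations 4 to 6 rose. Lcn11, named after its values were seen, moved against them, with -3.58 (adjusted p = 0.0066) in ectopicFzd1 and -3.66 (0.000647) in control with DOX. Library by library, the summed lipocalins departed from their group means with Bpifb5, Bpifb9b and Bpifb9a (r 0.69, 0.67 and 0.67, n = 72) and with r of 0.03 to 0.34 with the other members. Lcn11 had the highest median level of the list (494 CPM, against 201.5 CPM for Obp2a), and the sum was already 2761 to 4132 CPM in control at P0. These r values may thus reflect Lcn11 more than the genes that rose, and its part in them was not tested. The part of these cell types in the changes of the family was not tested.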

How the data were processed

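RNA from olfactory epithelium was sequenced with a stranded total RNA kit after ribosomal depletion, per the labels' protocols. STAR 2.6.1c, RSEM and mm10 are named in the submitters' processing notes. Gene counts (whole numbers, not normalized) and TPM values (scaled for length and depth) were analysed as the authors deposited them. Depth was 1314528 to 8788000 gene counts per library, and 52.76% to 91.05% of reads lay outside the gene counts.

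The main test was edgeR 4.0.16 (R 4.3.3), quasi-likelihood, on the counts of all 72 libraries with 1 term per group, filterByExpr, TMM and Benjamini-Hochberg adjustment over 22144 genes. The code was also run on simulated counts with the same dispersion for all genes. That setting is simpler than these data, so it does not show how the test performs on them. Changes run from the first age (P0, or P1 with DOX) to P14. CPM values use TMM library sizes. Alternatives tried were other filters, DESeq2 1.42.0 as the test or only for size factors, only the groups compared, limma 3.58.1 on log2(TPM + 1) and log2(TPM + 0.1), leaving out the 8 libraries with over 25% of counts in the Gm10800-type family, that family's genes, or the 2 libraries against their labels, and leaving out each of the 72 libraries in turn. The last kept the trended dispersion of the full fit.

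All 9 members are named, with up to 4 called genes of each other list by smallest p, and the 3 genes most like each tested member among genes with an average log2 CPM above 0 and a proper symbol. The members and lists were chosen with earlier results of these data known. Replicate numbers follow accession order, and nothing says that libraries came from separate litters, so p-values measure the spread between these libraries, which may in part be technical.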

Additional observations from a re-analysis of the deposited data

Results flagged for a closer look

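The change of Bpifb9a between P3 and P14 in ectopicFzd1 differed between DOX states, by an interaction term of 7.003 on the log2 scale (SE 1.91, adjusted p = 0.0237, edgeR). The term for its near-identical copy Bpifb9b was 6.77 (SE 1.88, adjusted p = 0.0273). The copies are near-identical in sequence and departed from their group means together (r 0.9975), so these are not 2 independent results. Without the libraries whose Fzd1 goes against their labels, the terms for Bpifb9a and Bpifb9b were 6.99 and 6.75 (adjusted p = 0.0141 and 0.0165). The calls were lost by limma on the TPM scale (adjusted p 0.247 to 0.323). Leaving out 1 of the 11 libraries in turn lost the Bpifb9a call 4 times and the Bpifb9b call 5 times (edgeR, 0.0516 to 0.184). The P3 libraries with DOX may come from 1 animal, and DOX and ID series cannot be told apart at P3.

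The change of Bpifb3 between P0 and P14 differed between Fzd1lacZ and control, by an interaction term of -1.76 on the log2 scale (SE 0.42, adjusted p = 0.0173, edgeR). The fitted changes were 2.73 in Fzd1lacZ and 4.48 in control. The ID series differ between these genotypes at P0, so genotype and ID series cannot be told apart in this term.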

How the results depend on the processing

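No paired analysis was possible because the labels give no replicate numbers and the numbers used here only follow accession order. Among called members, 322 of 360 values under alternatives kept their direction and call, 36 lost the call and 2 reversed, both Bpifa1 in ectopicFzd1 with DOX (-0.0597 by limma on TPM with either pseudocount). By limma on log2(TPM + 1) and on log2(TPM + 0.1), the members called between P14 and the first age were 5 in control (7389 and 6902 genes), 2 in Fzd1lacZ (7795 and 6610 genes) and 2 in ectopicFzd1 with DOX (13371 and 12276 genes). Both gave 2 for Fzd1lacZ against control, where they called 5734 and 6442 of the 22144 genes, against 630 in the main test. Both gave 0 for DOX in control (32 and 13 genes), for age by Fzd1lacZ (13 and 8 genes) and for age by DOX in ectopicFzd1 (0 and 0 genes). They called 49 and 47 member changes at later ages, against 89 in the main test, and the first called 4 members for DOX in ectopicFzd1 (3421 genes). Without a filter on low counts, the calls were 1 for Fzd1lacZ against control (596 genes), 2 for DOX in control (249), 4 for DOX in ectopicFzd1 (1145), 3 for age by ectopicFzd1 (83), 4 for age by Fzd1lacZ (1938), 2 for age by ectopicFzd1 with DOX (379) and 4 for age by DOX in control (155). With only the groups compared, they were 7 for age in control with DOX (10005 genes), 2 for DOX in control (1377), 1 for age by ectopicFzd1 with DOX (541) and 4 for age by DOX in control (1456). DESeq2 called 1 for ectopicFzd1 against control (2296 genes; 1 also with its size factors in edgeR, 2299 genes), 2 for DOX in control (487), 1 for age by ectopicFzd1 with DOX (1440) and 1 for age by DOX in control (1002). Without libraries over 25% in the Gm10800-type family, the calls were 1 for ectopicFzd1 against control (2946 genes), 3 for age by ectopicFzd1 with DOX (1673) and 1 for age by DOX in control (1271), and without the 2 libraries against their labels 1 for ectopicFzd1 against control (2201). The cause of these differences was not tested. Leaving out 1 library at a time gave 5 to 6 called members for age in ectopicFzd1, 5 to 6 in Fzd1lacZ, 7 to 8 in control, 6 to 6 in ectopicFzd1 with DOX and 2 to 5 in control with DOX. It gave 0 to 1 for ectopicFzd1 against control, 0 to 1 for Fzd1lacZ against control, 0 to 2 for DOX in control, 0 to 1 for age by ectopicFzd1 with DOX and 0 to 2 for age by DOX in ectopicFzd1. It gave 84 to 92 member changes at later ages. Bpifb2, with at most 6 counts a library, was too low to test.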
